A study of Homo sapiens with 24 samples.

Results

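Serpins are protease inhibitors that share a common fold and, in most members, trap their target protease by presenting an exposed reactive loop that the enzyme cleaves and is then held by. They control plasminogen activation, coagulation, complement and the proteases of leukocytes, and a few members carry hormones or chaperone collagen and inhibit nothing. The serpin genes were taken as every gene whose symbol is SERPIN followed by a clade letter from A to I and a number, which gave 35 of the 26475 genes measured. The 34 described here comprised 11 genes of clade A, 13 of clade B, 2 each of clades E, F and I, and 1 each of clades C, D, G and H. A further 2 names that begin with SERPIN (SERPINA13P and SERPINB9P1) fell outside this rule.

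Expression was measured by RNA-seq in 24 libraries from 786-M1A and OS-LM1, cell lines of clear cell renal cell carcinoma (ccRCC) selected for metastasis from the parental lines 786-O and OS-RC2. Each line contributed 4 libraries with the RNAi construct shPAX8-1, 4 with shPAX8-2 and 4 labelled sgNTC18, which is a non-targeting guide RNA. PAX8 is the transcription factor of the renal lineage that both RNAi constructs target, and the comparisons ask which genes depend on it in these cells. All cells were grown in RPMI with 10% serum, and the methods describe shRNA plasmids that doxycycline induces, although the labels state neither a dose nor a time. The control libraries carried a guide RNA and the depleted libraries an RNAi construct, so that the kind of construct and the depletion of PAX8 cannot be told apart in any comparison with sgNTC18. Each line derives from 1 tumour, and the labels do not say whether the 4 replicates were separate cultures, so p-values measure only the spread between these libraries.

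The deposited counts summed to between 11634419 and 52059375 per library. PAX8 checked the labels: it fell with both constructs in both lines, from a mean of 157 TPM (transcripts scaled by their length and the library's total) to 7.97 with shPAX8-1 and 17.8 with shPAX8-2 in 786-M1A cells, and from 114 to 34.2 and 33.5 TPM in OS-LM1 cells. Of 9 markers of renal epithelium and ccRCC, 8 had a mean of at least 1 TPM in every group of 786-M1A and 9 in every group of OS-LM1, the exception being CA9, at 0 to 3 counts per 786-M1A library. Their summed level, PAX8 included, was 8350 to 8918 TPM per library with sgNTC18, 6401 to 7052 with shPAX8-1 and 6765 to 7246 with shPAX8-2 in 786-M1A, and 7747 to 10283, 5272 to 6340 and 4391 to 4974 TPM in OS-LM1, so that it was lower in every shPAX8 library, and its part in the serpin results was not tested. The endothelial markers PECAM1, CDH5 and VWF summed to no more than 0.22 TPM in any library. Replicates 1 and 2 of 786-M1A with shPAX8-1 stood apart from replicates 3 and 4 (for example in SERPINB7, given below), and values without either pair are given where a result depended on them.

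The guide strands of the RNAi constructs, as the study lists them, are shown 5′ to 3′ with bases 2 to 8, the seed that pairs with targets, in capitals. They share no seed.
shPAX8-1: tGTGAGTCaatgcttagtcggc
shPAX8-2: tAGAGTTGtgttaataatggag
The shPAX8-1 guide was fully complementary to 9 and the shPAX8-2 guide to 7 of 10 PAX8 coding transcripts in GENCODE v44.

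Of the 34 serpin genes, 18 passed the filter on low counts in at least 1 line, 14 of them in both lines and 4 (SERPINA3, SERPINB3, SERPINB4 and SERPING1) in OS-LM1 only. The other 16 never exceeded 11 counts in a library. These genes below the filter included SERPINC1 (antithrombin) and SERPIND1 (heparin cofactor II), the coagulation inhibitors made by liver, which reached 0.63 and 0.12 TPM at most. Some had a few counts in most libraries, such as SERPINA10 in 24 and SERPINC1 in 22. SERPINB5 (maspin), a marker of squamous and myoepithelial cells, had a count in 3 libraries, and SERPINA7 and SERPINB13 had none in any library. The remaining members below the filter were SERPINA2, A4, A9, A10, A11 and A12, SERPINB10, B11 and B12, SERPINE3 and SERPINI2. Clades C and D thus had no gene tested, clade A had 4 of 11 and clade B 8 of 13.

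The highest group mean of the 34 genes was 194 TPM, that of SERPINH1 in OS-LM1 cells with sgNTC18. The sgNTC18 libraries of 786-M1A ranked SERPINH1 (112 ± 12.6 TPM), SERPINB6 (106 ± 3.34), SERPINB1 (88.4 ± 7.69), SERPINE2 (60.7 ± 3.64) and SERPINA1 (51.5 ± 1.81, all SD, n = 4), and SERPINH1 and SERPINB6 lay within their spread of each other. In OS-LM1 cells with shPAX8-1 the order changed, with SERPINB7 (110 ± 6.83 TPM) and SERPINB2 (91.6 ± 10.9, both SD, n = 4) among the 6 most abundant of the 34 genes, and SERPING1, near 0 in 786-M1A cells, at 39.9 ± 4.21 TPM (SD, n = 4).

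**Figure D1:**
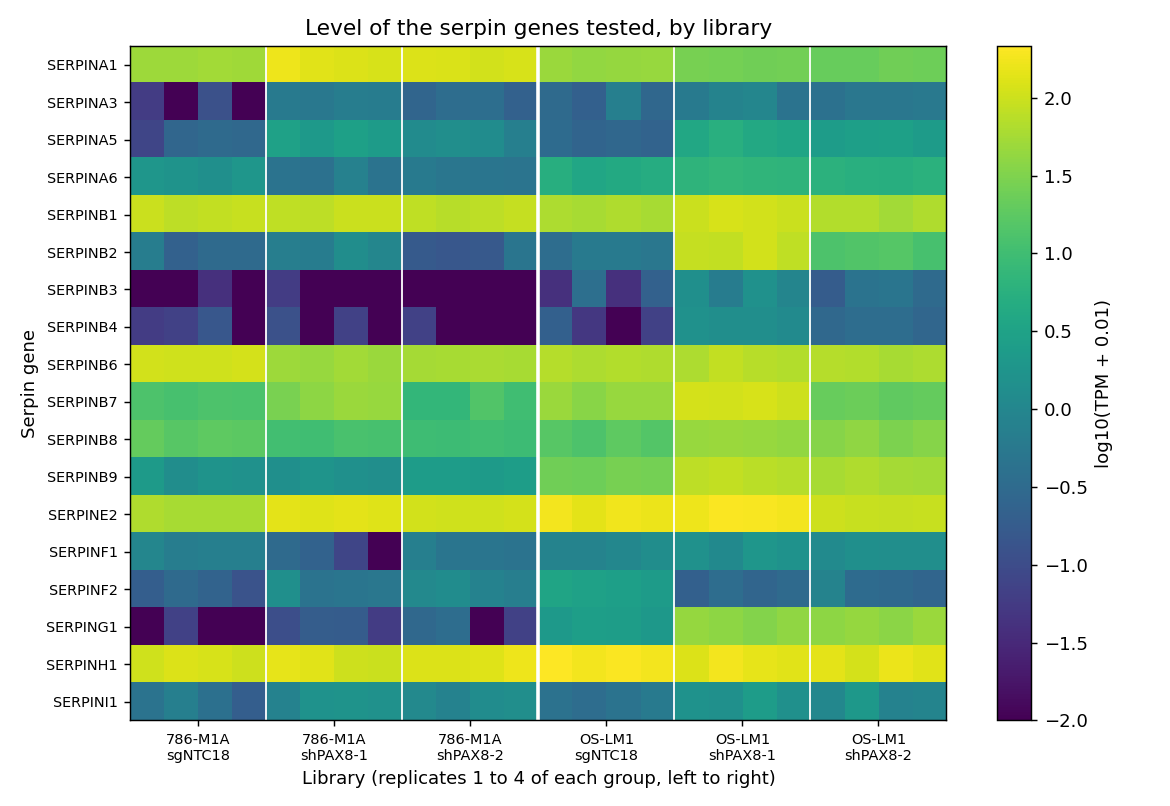
Level of 18 serpin genes tested, as log10(TPM + 0.01), in each of 24 libraries (columns; 4 replicates for each construct and line). SERPINB2 is bright only in the shPAX8 libraries of OS-LM1, and SERPING1 is dark throughout 786-M1A.

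Against sgNTC18, 11 of the 14 serpins tested in 786-M1A cells passed the test with both constructs combined (7 higher and 4 lower), where 70.4% of all 14452 genes tested did. In OS-LM1 cells it was 15 of 18 (11 higher and 4 lower), where 73.4% of 15049 genes did. With single constructs the counts were 11 of 14 with shPAX8-1 and 10 of 14 with shPAX8-2 in 786-M1A (70.6% and 62.5% of all genes), and 14 of 18 and 13 of 18 in OS-LM1 (71.4% and 68.4% of all genes). With shPAX8-1, 7 serpins were higher and 4 lower in 786-M1A, where 36.1% and 34.5% of all genes were, and 11 were higher and 3 lower in OS-LM1, where 35.6% and 35.8% were. With shPAX8-2, 7 were higher and 3 lower in 786-M1A, where 31.5% and 30.9% of all genes were, and 8 were higher and 5 lower in OS-LM1, where 34.3% and 34.1% were. In total the shares of serpins called were near the background, so that count says little about the family. In OS-LM1 with shPAX8-1 more of those tested were higher and fewer lower than over all genes, but this split follows in part from the filter. Of the higher genes there, SERPINA5, SERPINB3, SERPINB4 and SERPINI1 had passed it only through shPAX8 groups. Of the lower ones, SERPINF2 had passed it only through sgNTC18, so the split cannot be read as a trait of the family. The comparisons of each construct with sgNTC18 share the same 4 control libraries in a line. The median log2 fold change of the serpins tested was 0.38 in 786-M1A and 0.58 in OS-LM1, against 0.04 and -0.01 over all genes. Several members had passed the filter only through the group where they were high (named below), and these had to differ. Tests were edgeR's quasi-likelihood test with Benjamini-Hochberg adjustment over all genes tested, with a call at an adjusted p under 0.05, and errors on fold changes are standard errors (SE).

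Between the RNAi constructs, a comparison that does not use the sgNTC18 libraries, 7 of 14 serpins differed in 786-M1A (4 higher and 3 lower with shPAX8-1), where 47.1% of all genes did. In OS-LM1 cells 9 of 18 differed, each of them higher with shPAX8-1, where 29.1% of all genes differed and 12.4% were higher. The 9 were SERPINA5, SERPINB1, SERPINB2, SERPINB3, SERPINB4, SERPINB7, SERPINB8, SERPINB9 and SERPINE2, with 7 of the 8 clade B members tested among them. SERPINB3 and SERPINB4 had passed the filter only through shPAX8-1, so that they had to be high there to be tested. The calls of SERPINB3 and SERPINB8 were lost when certain single libraries were left out (given below). PAX8 itself was 2.26-fold lower in 786-M1A cells carrying shPAX8-1 than in those carrying shPAX8-2 (adjusted p = 4.0e-05), and in OS-LM1 the same difference did not pass the test (log2 -0.05 ± 0.12, adjusted p = 0.797). In 786-M1A cells the difference between constructs moved with base composition over all genes, with a rank correlation of -0.557 between log2 fold change and the GC content of 13048 genes.

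**Figure D2:**
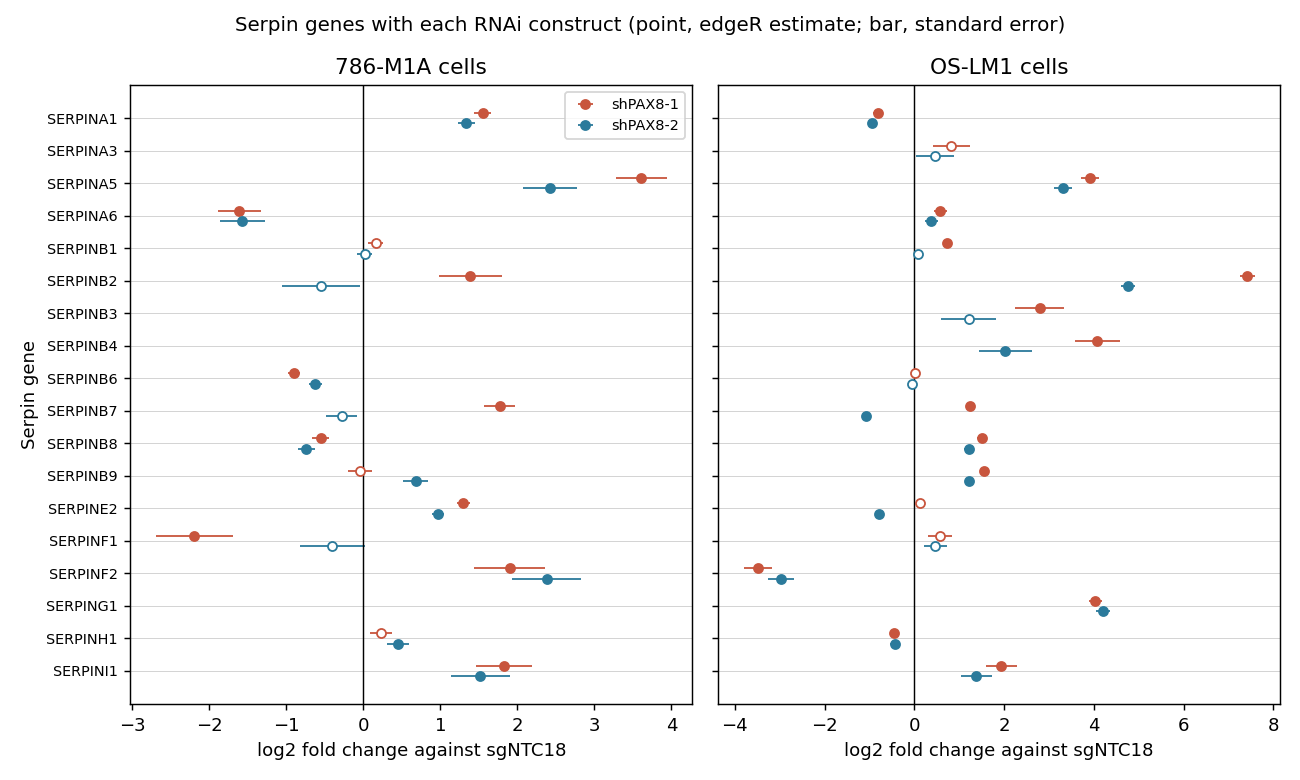
Log2 fold change of each tested serpin against sgNTC18 (horizontal axis; bars, SE) for shPAX8-1 and shPAX8-2 in 786-M1A (left) and OS-LM1 cells (right), filled where the adjusted p was under 0.05. SERPINB2, SERPING1, SERPINB4 and SERPINA5 reach furthest to the right in OS-LM1 and SERPINF2 furthest to the left, while in 786-M1A SERPINF2 lies to the right; the estimates of SERPINB4 in OS-LM1 and SERPINF1 in 786-M1A rest on a group mean of 3 counts or fewer.

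SERPINE2 (protease nexin 1, chr2:223975045-224039286 in the GRCh38.p14 RefSeq annotation, the build used throughout) inhibits thrombin and urokinase at the cell surface. In 786-M1A cells it stood at 75.8, 71, 73.4 and 72.5 CPM (counts scaled by the library's total) with sgNTC18, 186, 168, 180 and 174 with shPAX8-1 and 140, 141, 137 and 148 with shPAX8-2, and the 3 groups were separate. It rose 2.46-fold and 1.96-fold (log2 1.30 ± 0.08 and 0.97 ± 0.08, adjusted p = 2.7e-09 and 9.1e-08). In OS-LM1 cells the values were 226, 185, 221 and 205 CPM with sgNTC18, 224, 228, 232 and 240 with shPAX8-1 and 122, 118, 117 and 129 with shPAX8-2. Only the shPAX8-2 libraries lay below the control, 1.72-fold lower (log2 -0.78 ± 0.08, adjusted p = 3.6e-08), and the log2 fold change with shPAX8-1 was 0.12 ± 0.08 (adjusted p = 0.182). The difference between constructs was 0.90 ± 0.08 in OS-LM1 (adjusted p = 7.8e-08) and 0.33 ± 0.08 in 786-M1A (adjusted p = 0.00404), where it came to 0.00 (adjusted p = 0.988) once each library's GC trend was removed. SERPINE3, of the same clade, was not tested, with at most 4 counts in a library. Bulk libraries cannot separate more RNA per cell from more cells that express a gene.

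**Figure D3:**
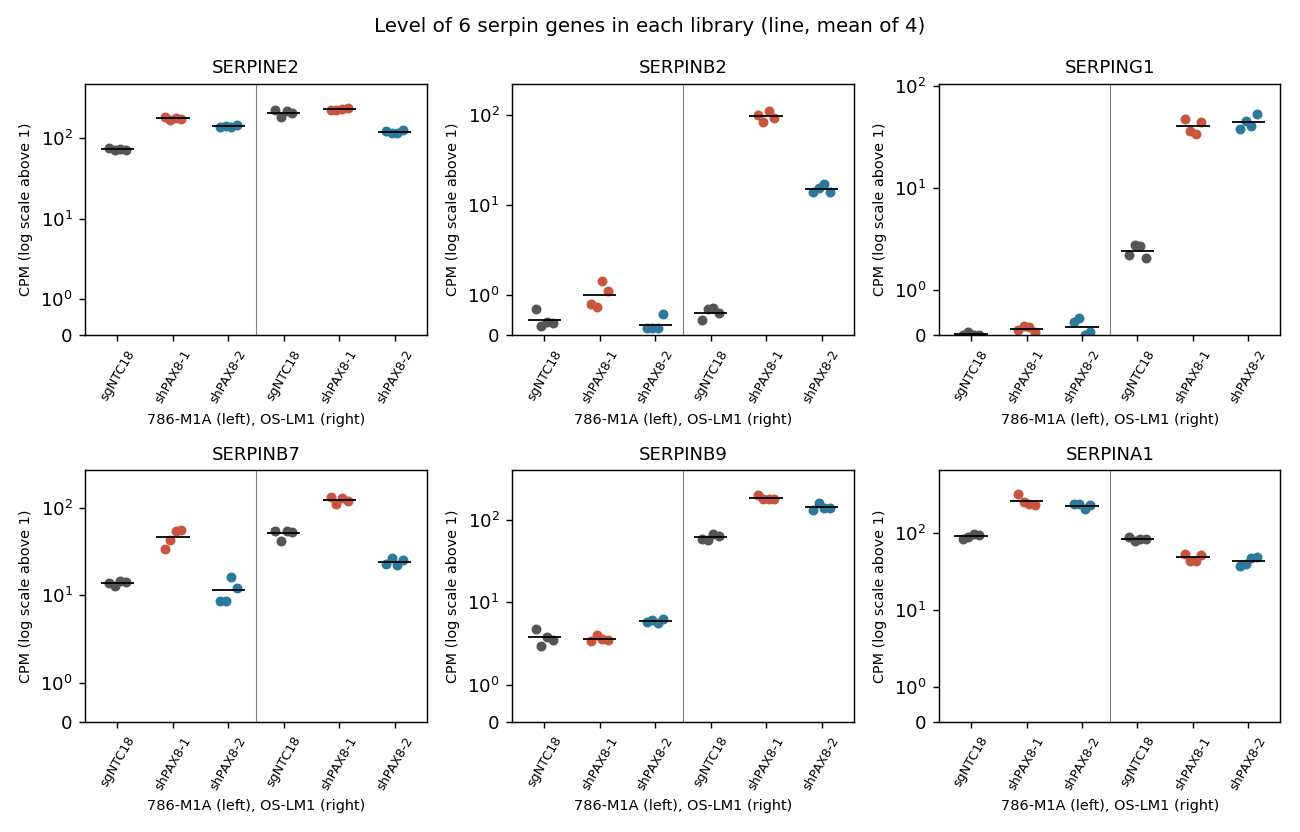
CPM of 6 serpins in each library (points; line, mean of 4; vertical axis logarithmic above 1) for sgNTC18 (grey), shPAX8-1 (red) and shPAX8-2 (blue), with 786-M1A left and OS-LM1 right of the vertical line. SERPINE2 is lowest with sgNTC18 in 786-M1A and with shPAX8-2 in OS-LM1, SERPINB7 is highest with shPAX8-1 in both lines, and SERPINA1 rises in 786-M1A and falls in OS-LM1.

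Clade A is made of plasma serpins of the 14q32 cluster, where 10 of its 11 genes lie. SERPINA1 (alpha-1-antitrypsin, chr14:94376747-94390635), the main plasma inhibitor of neutrophil elastase, stood in 786-M1A cells at 81.9, 89.2, 94.9 and 92.7 CPM with sgNTC18, 320, 252, 233 and 230 with shPAX8-1 and 234, 234, 203 and 227 with shPAX8-2. In OS-LM1 cells it stood at 88.2, 78.9, 81.7 and 82.7, 53.7, 43.3, 43.4 and 51 and 37.6, 39.1, 46.4 and 48.3 CPM in the same order. Every shPAX8 library of 786-M1A was above its control and every one of OS-LM1 below it. SERPINA1 rose 2.93-fold and 2.54-fold in 786-M1A (log2 1.55 ± 0.11 and 1.34 ± 0.11, adjusted p = 1.4e-08 and 1.1e-07) and fell 1.76-fold and 1.92-fold in OS-LM1 (log2 -0.82 ± 0.10 and -0.94 ± 0.10, adjusted p = 3.4e-07 and 6.4e-08). The log2 fold change of OS-LM1 minus that of 786-M1A was -2.30 ± 0.13 (adjusted p = 7.7e-14).

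SERPINA5 (protein C inhibitor, chr14:94581426-94593118), which acts on activated protein C and on urokinase, was low in control cells of both lines and rose in both. Its values were 0.0822, 0.332, 0.388 and 0.351 CPM with sgNTC18, 4.08, 2.87, 3.91 and 3.37 with shPAX8-1 and 1.59, 1.94, 1.74 and 1 with shPAX8-2 in 786-M1A, and 0.423, 0.322, 0.362 and 0.301, 5.39, 6.3, 5.22 and 4.93 and 3.08, 3.7, 3.94 and 3.43 in OS-LM1. The groups did not overlap in either line, with shPAX8-1 the highest in each. The log2 fold changes were 3.61 ± 0.33 and 2.43 ± 0.35 in 786-M1A (adjusted p = 1.7e-07 and 2.7e-05) and 3.91 ± 0.20 and 3.32 ± 0.20 in OS-LM1 (adjusted p = 1.7e-12 and 2.8e-11), but SERPINA5 had passed the filter in both lines only through the shPAX8 groups. A difference in response between lines did not pass the test (0.62 ± 0.37, adjusted p = 0.153).

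SERPINA6 (corticosteroid-binding globulin, chr14:94304248-94323336), a hormone carrier without inhibitory activity, moved in opposite directions. It had 1.4, 1.33, 1.16 and 1.49 CPM with sgNTC18, 0.366, 0.33, 0.662 and 0.387 with shPAX8-1 and 0.512, 0.432, 0.414 and 0.4 with shPAX8-2 in 786-M1A cells, where it passed the filter through the control group alone and fell (log2 -1.61 ± 0.28 and -1.57 ± 0.29, adjusted p = 1.1e-04 and 2.4e-04). In OS-LM1 cells it had 4.31, 3.02, 3.59 and 4.01, 5.78, 5.5, 5.58 and 5.81 and 4.83, 4.72, 4.59 and 5.25 CPM in the same order, and rose by 0.58 ± 0.14 with shPAX8-1 (adjusted p = 0.0011) and by 0.38 ± 0.14 with shPAX8-2 (adjusted p = 0.0223). No shPAX8 library overlapped its control in either line. The call with shPAX8-2 in OS-LM1 was lost without sgNTC18 replicate 2, sgNTC18 replicate 3 or shPAX8-2 replicate 4, with log2 values of 0.29 to 0.36. SERPINA3 (alpha-1-antichymotrypsin, an inhibitor of cathepsin G) stayed between 0 and 24 counts in all libraries and did not pass the test in OS-LM1 (log2 0.64 ± 0.36 with both constructs, adjusted p = 0.115). In 786-M1A it was below the filter and not tested, with 1, 0, 3 and 0 counts with sgNTC18, 10, 10, 10 and 11 with shPAX8-1 and 4, 6, 4 and 3 with shPAX8-2, and in CPM every shPAX8 library was above every control library. The liver markers ALB, APOA1 and TTR had means under 1 TPM in every group, with TTR at 0 in all libraries, while FGB, the fourth gene of that list, was lower in the shPAX8 libraries of OS-LM1, where SERPINA1 fell (values are given with SERPINF2).

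The 10 SERPINB genes of 18q21 lie at chr18:63476958-64019779, an interval of 542.8 kb. Clade B serpins lack a classical secretion signal and act mostly inside cells, and those of 18q21 are known from squamous epithelium, keratinocytes and monocytes. From SERPINB5 at the centromeric end the order is SERPINB12, SERPINB13, SERPINB4, SERPINB3, SERPINB11, SERPINB7, SERPINB2, SERPINB10 and SERPINB8. Counts above the filter came from SERPINB2, SERPINB7 and SERPINB8 in both lines and from SERPINB3 and SERPINB4 in OS-LM1 only. Summed over the cluster, the level was 45.2 ± 3.15 CPM with sgNTC18, 68.9 ± 12.4 with shPAX8-1 and 30.1 ± 4.33 with shPAX8-2 in 786-M1A cells, and 80.6 ± 9.89, 306 ± 24.8 and 106 ± 10.6 in OS-LM1 cells (all SD, n = 4). In each line the shPAX8-1 libraries were the highest of the 3 groups, without overlap.

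The windows of 250 bases before the start of 5 of these genes are shown because all 5 were higher with shPAX8-1 than with shPAX8-2 in OS-LM1 cells. They are the RefSeq windows of GRCh38.p14, read 5′ to 3′ on the strand of the gene. In SERPINB2 (chr18:63887455-63887704, plus strand) and SERPINB8 (chr18:63969831-63970080, plus strand) capitals mark TGANTCA, a loose form of the AP-1 motif in which N is any base. In SERPINB3 (chr18:63661894-63662143, minus strand) and SERPINB4 (chr18:63644257-63644506, minus strand) they mark the bases at which these near-copies differ. The window of SERPINB7 (chr18:63752807-63753056, plus strand) holds no AP-1 motif and has no capitals.
SERPINB2: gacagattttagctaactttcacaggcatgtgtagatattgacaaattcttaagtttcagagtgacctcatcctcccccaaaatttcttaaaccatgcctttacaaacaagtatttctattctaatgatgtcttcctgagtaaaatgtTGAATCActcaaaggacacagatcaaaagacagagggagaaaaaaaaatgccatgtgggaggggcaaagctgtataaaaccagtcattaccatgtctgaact
SERPINB8: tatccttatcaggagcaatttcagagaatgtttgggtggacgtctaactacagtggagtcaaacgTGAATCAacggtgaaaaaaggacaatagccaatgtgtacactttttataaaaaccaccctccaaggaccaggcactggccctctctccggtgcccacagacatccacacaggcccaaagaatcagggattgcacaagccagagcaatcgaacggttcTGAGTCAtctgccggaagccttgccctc
SERPINB7: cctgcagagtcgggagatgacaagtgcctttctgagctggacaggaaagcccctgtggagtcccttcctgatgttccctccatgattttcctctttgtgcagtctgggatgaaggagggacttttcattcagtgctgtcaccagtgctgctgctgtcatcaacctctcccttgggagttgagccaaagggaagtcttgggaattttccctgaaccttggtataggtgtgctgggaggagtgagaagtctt
SERPINB3: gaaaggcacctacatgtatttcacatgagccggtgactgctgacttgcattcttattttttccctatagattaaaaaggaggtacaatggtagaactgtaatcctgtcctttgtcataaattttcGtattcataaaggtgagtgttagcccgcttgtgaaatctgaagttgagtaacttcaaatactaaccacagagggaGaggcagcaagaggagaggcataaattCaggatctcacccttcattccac
SERPINB4: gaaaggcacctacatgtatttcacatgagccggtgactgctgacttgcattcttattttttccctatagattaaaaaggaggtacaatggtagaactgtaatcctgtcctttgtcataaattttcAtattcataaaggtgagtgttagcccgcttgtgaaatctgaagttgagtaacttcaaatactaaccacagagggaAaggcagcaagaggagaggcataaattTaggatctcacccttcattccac
SERPINB2 held 1 AP-1 motif, 102 bases before its start, and SERPINB8 held 2, 185 and 28 bases before. Promoter windows were at hand for 27 of the 34 serpins, and 7 of them held TGANTCA on either strand (SERPINB2, B5, B8, B12, B13, E3 and I2), against 6.6% of 27305 promoters. Those of SERPINB3 and SERPINB4 did not. The serpin matches held C or G at N only in SERPINB13 (TGACTCA) and in SERPINB8 (TGAGTCA, 28 bases before its start), and A or T elsewhere. Of the 7 genes, only SERPINB2 and SERPINB8 passed the filter on low counts in either line. The cores of the hypoxia response element were ACGTG, found in 3 of 27 (SERPINB6, SERPINB8 and SERPINE2) against 18.68% of all promoters, and GCGTG, found in 6 of 27 against 31.91%. The sequences GTCATGC and GTCACGC, searched as cores of a paired-domain site, were in none of the 27 windows and in 1.44% and 2.27% of all promoters. Both strands were searched, and in SERPINB8 the ACGTG at 188 bases before the start overlaps the first AP-1 motif. SERPINF1, SERPINF2, SERPING1, SERPINC1, SERPINB10, SERPINB11 and SERPINA2 had no entry.

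SERPINB2 (plasminogen activator inhibitor 2, chr18:63887705-63903888), an inhibitor of urokinase that monocytes and keratinocytes make, had the largest fold change against sgNTC18 of the serpins tested. In OS-LM1 cells it went from 0.366, 0.644, 0.668 and 0.542 CPM with sgNTC18 to 101, 84.1, 112 and 93.5 with shPAX8-1 and 13.9, 15.5, 17.1 and 13.8 with shPAX8-2. The 3 groups were far apart, and the highest control library was below the lowest shPAX8 library. The increase was 171-fold with shPAX8-1 (log2 7.42 ± 0.16, adjusted p = 1.3e-17) and 27.1-fold with shPAX8-2 (log2 4.76 ± 0.16, adjusted p = 9.3e-15), and the constructs differed 6.32-fold (log2 2.66 ± 0.12, adjusted p = 8.8e-12). In 786-M1A cells it stayed low, at 0.657, 0.221, 0.324 and 0.307 CPM with sgNTC18, 0.784, 0.706, 1.44 and 1.1 with shPAX8-1 and 0.171, 0.162, 0.166 and 0.533 with shPAX8-2, and passed the filter only through shPAX8-1. There the log2 fold change was 1.39 ± 0.41 with shPAX8-1 (adjusted p = 0.00726), which lost the call without replicates 3 and 4 of shPAX8-1 (0.95, adjusted p = 0.127), and -0.55 ± 0.51 with shPAX8-2 (adjusted p = 0.362). The difference between constructs in 786-M1A (1.95 ± 0.47, adjusted p = 0.0042) lost its call in the same way (1.53, adjusted p = 0.0656) and rose to 2.54 without shPAX8-2 replicate 4. The response to depletion was larger in OS-LM1 than in 786-M1A by 5.72 ± 0.44 (adjusted p = 3.4e-11). A long non-coding RNA, LOC124904356, overlaps the start of SERPINB2 in RefSeq, and whether counting used the strand is not given in the sources used here.

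SERPINB7 (megsin, chr18:63753057-63805370), named for the mesangial cells of the glomerulus, was higher with shPAX8-1 and not with shPAX8-2. In 786-M1A cells it had 13.9, 12.8, 14.7 and 14.1 CPM with sgNTC18, 33.4, 43.4, 55 and 55.6 with shPAX8-1 and 8.53, 8.69, 16.2 and 12.2 with shPAX8-2. In OS-LM1 cells it had 54.8, 41.6, 54.9 and 53.5, 134, 111, 128 and 121 and 23, 26.8, 22.2 and 25.1 CPM in the same order. The shPAX8-1 libraries were above both other groups in each line, while those with shPAX8-2 overlapped the control in 786-M1A and lay below it in OS-LM1. With shPAX8-1 it rose 3.42-fold in 786-M1A (log2 1.77 ± 0.20, adjusted p = 1.4e-06) and 2.37-fold in OS-LM1 (log2 1.25 ± 0.10, adjusted p = 1.1e-09). With shPAX8-2 it fell 2.10-fold in OS-LM1 (log2 -1.07 ± 0.10, adjusted p = 1.7e-08), and the value in 786-M1A was -0.28 ± 0.20 (adjusted p = 0.249). The constructs differed 4.14-fold in 786-M1A (log2 2.05 ± 0.21, adjusted p = 6.4e-06) and 4.99-fold in OS-LM1 (log2 2.32 ± 0.10, adjusted p = 8.8e-12). The average over constructs, 0.75 ± 0.18 in 786-M1A and 0.09 ± 0.09 in OS-LM1, therefore describes neither of them.

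SERPINB8 (chr18:63970081-64019779), an intracellular inhibitor of furin, fell in 786-M1A and rose in OS-LM1 with each construct. Its values were 33.1, 28, 32.4 and 29.8 CPM with sgNTC18, 19.3, 18.7, 22.2 and 22.8 with shPAX8-1 and 17.6, 17.8, 19.3 and 18.2 with shPAX8-2 in 786-M1A, and 29.7, 23.7, 33.2 and 27.3, 88.9, 76.8, 81.1 and 82.5 and 61.4, 76.9, 57.1 and 68.6 in OS-LM1. No shPAX8 library overlapped its control in either line. The log2 fold changes were -0.55 ± 0.11 and -0.74 ± 0.11 in 786-M1A (adjusted p = 3.0e-04 and 3.3e-05) and 1.51 ± 0.11 and 1.22 ± 0.11 in OS-LM1 (adjusted p = 3.1e-10 and 7.9e-09), a difference between lines of 2.04 ± 0.13 (adjusted p = 1.2e-12). The shPAX8-1 and shPAX8-2 libraries overlapped in both lines, and their difference in OS-LM1 (0.29 ± 0.11, adjusted p = 0.0479) was lost when any of replicates 1, 3 and 4 of either construct was left out, with values of 0.25 to 0.33.

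SERPINB3 and SERPINB4 (chr18:63655197-63661893 and chr18:63637259-63644256), the squamous cell carcinoma antigens, which inhibit cysteine cathepsins and cathepsin G respectively, passed the filter only in OS-LM1, with at most 4 counts in a 786-M1A library. Their longest coding transcripts were 95.7% identical over 1707 positions, and the promoters shown above 98.8% over 250, so the division of reads between them is uncertain. In OS-LM1 cells SERPINB3 had 1, 13, 1 and 7 counts with sgNTC18, 31, 11, 38 and 26 with shPAX8-1 and 2, 7, 24 and 11 with shPAX8-2. SERPINB4 had 7, 1, 0 and 2, 31, 22, 33 and 32 and 4, 6, 16 and 8 counts in the same order. Both passed the filter through shPAX8-1 alone, and in CPM both were higher with shPAX8-1 than with shPAX8-2 in every library, by 1.58 ± 0.52 and 2.04 ± 0.43 on the log2 scale (adjusted p = 0.0267 and 0.00138). The SERPINB3 difference lost its call without replicate 1 or 3 of shPAX8-1 or replicate 1 or 4 of shPAX8-2 (1.40 to 1.57). Against sgNTC18, SERPINB3 was 2.79 ± 0.55 higher with shPAX8-1 (adjusted p = 1.7e-04, and 3.67 without sgNTC18 replicate 2, which held 13 of the control counts), and the value with shPAX8-2 was 1.21 ± 0.61 (adjusted p = 0.0857). For SERPINB4 no fold change against sgNTC18 is given, since the control counts averaged 3 or fewer.

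With shPAX8-1 against shPAX8-2 in OS-LM1, all 5 genes of the cluster that were tested were higher, SERPINB2, SERPINB3, SERPINB4, SERPINB7 and SERPINB8, where 12.4% of all genes were higher, although SERPINB3 and SERPINB4 had to differ to be tested. In 786-M1A SERPINB2 and SERPINB7 differed in that direction, and the value of SERPINB8 was 0.19 ± 0.11 (adjusted p = 0.177). Of the genes around the cluster, KDSR, which makes a sphingolipid precursor, BCL2, an inhibitor of apoptosis, and VPS4B, of the ESCRT machinery, lie centromeric of SERPINB5, and HMSD, a minor histocompatibility gene, lies between SERPINB10 and SERPINB8. Some of them differed between constructs too. In 786-M1A KDSR and HMSD were higher with shPAX8-1 than with shPAX8-2, by 0.40 ± 0.11 and 1.07 ± 0.28 on the log2 scale (adjusted p = 0.00869 and 0.00607). In OS-LM1 the values of KDSR and VPS4B were 0.06 ± 0.08 and 0.13 ± 0.10 (adjusted p = 0.606 and 0.341), and BCL2 was lower with shPAX8-1 by -1.81 ± 0.11 (adjusted p = 1.2e-09). BCL2 in OS-LM1 had a mean of 7.72 TPM with sgNTC18, 3.20 with shPAX8-1 and 8.56 with shPAX8-2, where SERPINB7 was highest with shPAX8-1. HMSD was at 0 in all OS-LM1 libraries and fell from 7.0 to 4.24 and 2.04 TPM in 786-M1A, 1.12 ± 0.21 on the log2 scale with both constructs (adjusted p = 1.9e-04).

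**Figure D4:**
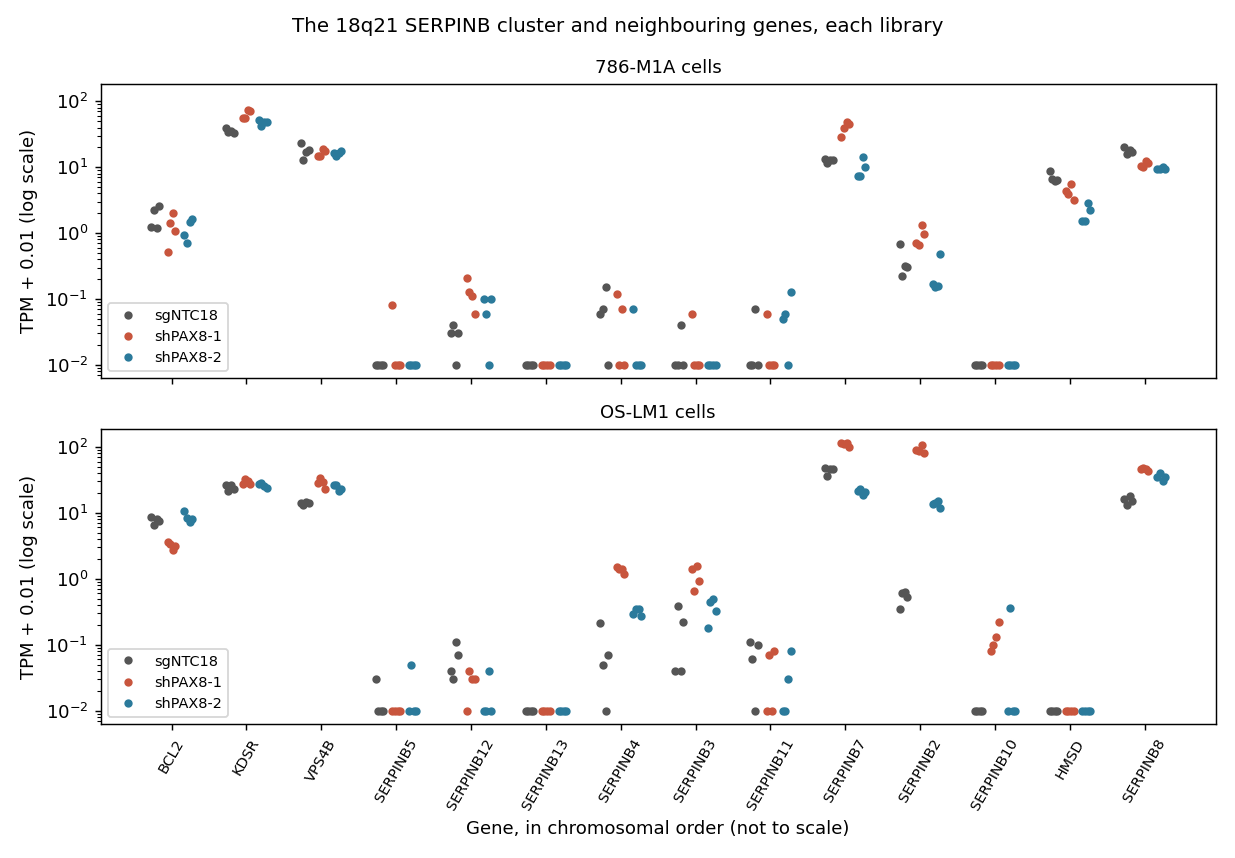
TPM + 0.01 (log axis) of the 10 SERPINB genes of 18q21 and 4 neighbouring genes in each library, in chromosomal order, for 786-M1A (top) and OS-LM1 (bottom). SERPINB7, SERPINB2 and SERPINB8 form the expressed block, shPAX8-1 is the highest group for SERPINB7 in both lines, and SERPINB2 spans from under 1 TPM to a mean of 91.6 TPM in OS-LM1.

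The 6p25 cluster holds SERPINB1, SERPINB9 and SERPINB6, intracellular guards against the proteases of granulocytes and lymphocytes. SERPINB9 (chr6:2887270-2903309), the inhibitor of granzyme B, had 4.8, 2.98, 3.79 and 3.47 CPM with sgNTC18, 3.42, 4.03, 3.57 and 3.49 with shPAX8-1 and 5.83, 6.1, 5.66 and 6.37 with shPAX8-2 in 786-M1A, and 58.1, 57.2, 66.3 and 62.7, 198, 180, 176 and 178 and 132, 160, 137 and 138 in OS-LM1. All OS-LM1 libraries were above all 786-M1A libraries, and in OS-LM1 the groups were separate with shPAX8-1 the highest. It rose 2.95-fold and 2.34-fold in OS-LM1 (log2 1.56 ± 0.09 and 1.22 ± 0.09, adjusted p = 6.0e-12 and 2.5e-10), and in 786-M1A by 0.68 ± 0.16 with shPAX8-2 (adjusted p = 0.0017), with a value of -0.04 ± 0.16 for shPAX8-1 (adjusted p = 0.844). Among sgNTC18 libraries SERPINB9 was 16.1-fold higher in OS-LM1 than in 786-M1A (log2 4.01 ± 0.12, adjusted p = 1.5e-20). The leukocyte markers listed were PTPRC, CD68 and LYZ, and 2 of these 3 had a mean of at least 1 TPM in every group. Summed, the 3 reached 74.9 to 87.6 TPM per library with sgNTC18, 248 to 327 with shPAX8-1 and 194 to 234 with shPAX8-2 in OS-LM1. In 786-M1A the sums were 198 to 217, 181 to 289 and 289 to 368 TPM in the same order. PTPRC had at most 7.75 counts in any library. CD68, of the same marker list, had means of 77.2, 292 and 211 TPM with sgNTC18, shPAX8-1 and shPAX8-2 in OS-LM1, and 205, 230 and 325 TPM in 786-M1A, and its part in these results was not tested.

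SERPINB6 (chr6:2948159-2971793), which inhibits cathepsin G, had 84.7, 90.3, 89.2 and 93.5 CPM with sgNTC18, 48, 45, 48.5 and 47 with shPAX8-1 and 54.7, 60.4, 56.1 and 58.3 with shPAX8-2 in 786-M1A, and 62.3, 57.6, 60.6 and 58.8, 57.3, 67.3, 60.8 and 60.8 and 58.4, 59.4, 53.3 and 58.2 in OS-LM1. It fell 1.87-fold and 1.54-fold in 786-M1A without overlap (log2 -0.90 ± 0.08 and -0.62 ± 0.08, adjusted p = 2.0e-07 and 1.5e-05). In OS-LM1 the groups overlapped, with log2 values of 0.02 ± 0.08 and -0.06 ± 0.08 (adjusted p = 0.877 and 0.546), and the difference in response between lines was 0.77 ± 0.09 (adjusted p = 7.3e-08). SERPINB1 (chr6:2832332-2841863), the leukocyte elastase inhibitor, had 131, 114, 126 and 134 CPM with sgNTC18, 130, 122, 147 and 157 with shPAX8-1 and 124, 115, 123 and 141 with shPAX8-2 in 786-M1A, where the groups overlapped and neither construct passed the test. In OS-LM1 it had 95.8, 87.3, 101 and 88, 153, 160, 156 and 156 and 96.9, 106, 85.7 and 106 CPM. Only the shPAX8-1 libraries stood above the control there, 1.65-fold (log2 0.73 ± 0.09, adjusted p = 2.8e-07), and 1.55-fold above shPAX8-2 (log2 0.63 ± 0.09, adjusted p = 1.7e-05).

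Clade F holds a pair of neighbouring genes on chromosome 17. SERPINF2 (alpha-2-antiplasmin, chr17:1742871-1755265), the main plasma inhibitor of plasmin, had 0.205, 0.387, 0.259 and 0.132 CPM with sgNTC18, 1.78, 0.565, 0.602 and 0.663 with shPAX8-1 and 1.37, 1.62, 1.08 and 0.933 with shPAX8-2 in 786-M1A. In OS-LM1 it had 4.31, 3.72, 3.67 and 3.04, 0.243, 0.37, 0.281 and 0.417 and 0.98, 0.418, 0.355 and 0.32 CPM. The control was the lowest group of 786-M1A and the highest of OS-LM1, without overlap in either, and SERPINF2 passed the filter through the shPAX8 groups in the former and through sgNTC18 in the latter. The log2 fold changes were 1.90 ± 0.46 and 2.38 ± 0.45 in 786-M1A (adjusted p = 0.00163 and 3.0e-04; 2.51 with shPAX8-1 once the GC trend was removed) and -3.49 ± 0.31 and -2.98 ± 0.29 in OS-LM1 (adjusted p = 5.9e-09 and 3.5e-08), a difference between lines of -5.34 ± 0.47 (adjusted p = 3.4e-10). The liver gene FGB moved in the same way in OS-LM1, from a mean of 121 TPM with sgNTC18 to 7.58 and 12.8 TPM, while ALB and TTR had at most 2 counts per library there, and its part in the change of SERPINF2 was not tested.

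SERPINF1 (pigment epithelium-derived factor, chr17:1762060-1777565), a non-inhibitory and antiangiogenic member, had 18, 10, 19 and 14 counts with sgNTC18, 5, 4, 1 and 0 with shPAX8-1 and 11, 8, 5 and 6 with shPAX8-2 in 786-M1A. The shPAX8-1 libraries were the lowest, and SERPINF1 had passed the filter through the control group alone. In OS-LM1 it had 0.733, 0.732, 0.89 and 1.14, 1.41, 0.847, 1.57 and 1.44 and 0.98, 1.25, 1.23 and 1.31 CPM, with overlapping groups. The log2 fold change there was 0.52 ± 0.23 with both constructs (adjusted p = 0.0485), a call that was lost without sgNTC18 replicate 1, 2 or 3, shPAX8-1 replicate 1, 3 or 4, or shPAX8-2 replicate 2, 3 or 4 (0.45 to 0.54), and with DESeq2 (0.53, adjusted p = 0.0542).

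SERPING1 (C1 inhibitor, chr11:57597685-57614848), which controls the first complement proteases and plasma kallikrein, was near 0 in one line and induced in the other. In 786-M1A cells it had 0, 1, 0 and 0 counts with sgNTC18, 2, 4, 3 and 1 with shPAX8-1 and 5, 7, 0 and 1 with shPAX8-2, below the filter. In OS-LM1 cells it had 2.2, 2.75, 2.7 and 2.05 CPM with sgNTC18, 47.5, 36.5, 33.9 and 44.3 with shPAX8-1 and 38, 45.8, 40.7 and 52.9 with shPAX8-2. Both shPAX8 groups were above the control without overlap and overlapped each other. It rose 16.4-fold with shPAX8-1 and 18.3-fold with shPAX8-2 (log2 4.03 ± 0.15 and 4.20 ± 0.15, adjusted p = 2.4e-14 and 1.9e-14), and the difference between constructs was -0.16 ± 0.13 (adjusted p = 0.364). The fibroblast markers COL1A1, COL3A1 and DCN summed to 4.2 to 5.72 TPM per library with sgNTC18, 32.6 to 39.9 with shPAX8-1 and 30.0 to 59.7 with shPAX8-2 in OS-LM1, of which DCN had a mean of 0.608 TPM at most, and their part in the rise of SERPING1 was not tested. With control counts of 0 or 1 in 786-M1A, no fold change between lines is given.

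SERPINH1 (HSP47, chr11:75562253-75572783), the collagen chaperone of the endoplasmic reticulum, changed little. It had 121, 158, 144 and 124 CPM with sgNTC18, 192, 178, 131 and 131 with shPAX8-1 and 167, 172, 177 and 221 with shPAX8-2 in 786-M1A, and 278, 229, 259 and 234, 170, 207, 182 and 188 and 178, 147, 214 and 193 in OS-LM1. The shPAX8 libraries of OS-LM1 were all below the control, and in 786-M1A those with shPAX8-2 were all above it. In OS-LM1 it fell by 0.45 ± 0.10 and by 0.44 ± 0.10 on the log2 scale (adjusted p = 5.8e-04 and 6.6e-04), but with the GC trend removed the value with shPAX8-1 was -0.07 (adjusted p = 0.38). The OS-LM1 value with both constructs, -0.45 ± 0.09 (adjusted p = 1.1e-04), lost its call in the same way (-0.12, adjusted p = 0.0854). The increase with shPAX8-2 in 786-M1A (0.45 ± 0.14, adjusted p = 0.0131) was lost without shPAX8-2 replicate 4 (0.34, adjusted p = 0.0632). With both constructs (0.34 ± 0.13, adjusted p = 0.025) the call was lost without shPAX8-1 replicates 1 and 2 (0.20), and without sgNTC18 replicate 1, sgNTC18 replicate 4 or shPAX8-2 replicate 4 (0.28 to 0.29).

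SERPINI1 (neuroserpin, chr3:167735721-167825569), an inhibitor of tissue-type plasminogen activator, rose in both lines from a low level. It had 0.37, 0.663, 0.356 and 0.176 CPM with sgNTC18, 0.784, 1.51, 1.57 and 1.55 with shPAX8-1 and 1.02, 0.809, 1.24 and 1.33 with shPAX8-2 in 786-M1A, and 0.394, 0.322, 0.417 and 0.572, 1.6, 1.27, 2.29 and 1.52 and 0.91, 1.97, 0.793 and 0.929 in OS-LM1. Every shPAX8 library was above its control in both lines, and the gene had passed the filter only through the shPAX8 groups. The log2 fold changes were 1.83 ± 0.36 and 1.52 ± 0.38 in 786-M1A (adjusted p = 3.4e-04 and 0.00251) and 1.94 ± 0.34 and 1.38 ± 0.35 in OS-LM1 (adjusted p = 3.8e-05 and 0.00157). The response in OS-LM1 minus that in 786-M1A was 0.01 ± 0.53.

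Between the lines, 11 of 18 serpins differed among sgNTC18 libraries, 9 of them higher in OS-LM1, where 63% of 15665 genes differed and 32% were higher. Besides SERPINB9, SERPINF2 was 15.0-fold higher in OS-LM1 (log2 3.91 ± 0.38, adjusted p = 1.1e-09), SERPINB7 3.68-fold (1.88 ± 0.16, adjusted p = 1.2e-10) and SERPINE2 2.86-fold (1.52 ± 0.07, adjusted p = 8.7e-16). SERPINB6 and SERPINB1 were 1.49-fold and 1.36-fold lower. Among shPAX8 libraries 13 of 18 differed, 11 higher and 2 lower in OS-LM1, where 83.1% of all genes did, 41.7% higher and 41.5% lower. The response to depletion differed between lines for 14 of 18 serpins, 8 with a higher log2 fold change in OS-LM1 and 6 with a lower one, where 58.7% of all genes differed, 29.9% upward and 28.8% downward. These counts include members that had passed the filter in OS-LM1 only, whose calls follow in part from the filter. They were SERPINA3, SERPINB3 and SERPING1 among the 9 higher with sgNTC18, and SERPINB3, SERPINB4 and SERPING1 among the 11 higher with shPAX8. Of the 14, SERPINA3, SERPINB4 and SERPINF1 rest on a group mean of 3 counts or fewer. Among the abundant members, SERPINB2 and SERPINB8 had higher fold changes in OS-LM1, and SERPINE2 had a lower one, by -1.44 ± 0.09 (adjusted p = 5.3e-13).

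A list of 58 partner genes of serpins, their target proteases, cofactors and clearance receptors, was counted. In 786-M1A cells 33 were tested with both constructs against sgNTC18, 24 of them higher and 4 lower, where 35.7% of all genes were higher and 34.7% lower. In OS-LM1 cells 36 were tested, 23 higher and 8 lower, where 36.4% were higher and 37.1% lower. The median log2 fold change of the partners tested was 1.19 in 786-M1A and 0.62 in OS-LM1. The higher counts and the medians include partners at or near 0 in control cells, which had to rise to be tested. Among them were ELANE, PRTN3 and VTN in 786-M1A and KLK11, F10 and F11 in OS-LM1 (counts given below). PLAU, urokinase and a target of SERPINB2, had 87.4, 98.4, 99.4 and 89.6 CPM with sgNTC18, 277, 278, 237 and 245 with shPAX8-1 and 199, 202, 209 and 234 with shPAX8-2 in 786-M1A, and 24.1, 18.8, 24.8 and 21.1, 142, 151, 149 and 155 and 119, 121, 139 and 150 in OS-LM1, without overlap of control and shPAX8 libraries. With both constructs PLAU rose 2.53-fold in 786-M1A and 6.30-fold in OS-LM1 (log2 1.34 ± 0.09 and 2.66 ± 0.09, adjusted p = 3.1e-09 and 4.4e-15). PLAUR, the urokinase receptor, rose 4.02-fold and 2.10-fold (log2 2.01 ± 0.10 and 1.07 ± 0.09), and PLAT, tissue-type plasminogen activator, 3.98-fold and 2.22-fold (log2 1.99 ± 0.15 and 1.15 ± 0.09), with adjusted p between 1.8e-10 and 1.7e-08. Between constructs, PLAUR was higher with shPAX8-1 by 0.46 ± 0.10 in 786-M1A and 0.29 ± 0.10 in OS-LM1 (adjusted p = 0.00225 and 0.0287). PLAU was higher with shPAX8-1 by 0.30 ± 0.09 in 786-M1A (adjusted p = 0.0165), and its value in OS-LM1 was 0.14 ± 0.09 (adjusted p = 0.259).

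Among coagulation partners, TFPI, the inhibitor of the tissue factor pathway, rose 4.10-fold in 786-M1A and 5.89-fold in OS-LM1 (log2 2.03 ± 0.18 and 2.56 ± 0.12), and TFPI2, its relative that inhibits plasmin, fell 3.49-fold and 3.67-fold (log2 -1.80 ± 0.08 and -1.88 ± 0.09). F12, coagulation factor XII and a target of SERPING1, fell by 1.49 ± 0.20 and by 2.18 ± 0.13 on the log2 scale. THBD, thrombomodulin, rose by 1.93 ± 0.16 and 2.69 ± 0.31, and CASP1, caspase-1, by 1.57 ± 0.26 and 1.85 ± 0.16, each named for the 786-M1A value first and with adjusted p between 3.3e-13 and 6.6e-05 for these 5 genes. VTN, vitronectin, an adhesive protein of plasma and matrix, rose from a mean of 13.1 CPM to 47.9 and 59.0 CPM in OS-LM1 (log2 2.01 ± 0.12 with both constructs, adjusted p = 1.2e-11), and in 786-M1A went from 0 or 1 count to between 3 and 18 per library. PLG, plasminogen, rose 28.2-fold in OS-LM1 (log2 4.82 ± 0.17, adjusted p = 4.5e-15) from a mean of 0.519 CPM, and F2RL1, a receptor that trypsin-like proteases cleave, 7.96-fold (log2 2.99 ± 0.10, adjusted p = 2.4e-15). LRP1, the receptor that clears serpin complexes, rose by 1.10 ± 0.21 in 786-M1A and 1.39 ± 0.12 in OS-LM1 (adjusted p = 2.4e-04 and 2.8e-09). In 786-M1A the LRP1 value was 1.71 ± 0.24 with shPAX8-2 (adjusted p = 1.7e-05), and with shPAX8-1 it did not pass the test (0.49 ± 0.23, adjusted p = 0.069). Among receptors, VLDLR, which also takes up serpin complexes, rose by 1.73 ± 0.08 in 786-M1A and by 0.39 ± 0.08 in OS-LM1, while SORL1 and the thrombin receptor F2RL2 rose in OS-LM1 (1.53 ± 0.10 and 1.31 ± 0.12). In 786-M1A their values with both constructs were -0.09 ± 0.18 and 0.51 ± 0.26 (adjusted p = 0.653 and 0.0925), and F2RL2 passed the test with shPAX8-2 (0.86 ± 0.29, adjusted p = 0.0185). The complement proteases C1R and C1S, targets of SERPING1, rose by 1.33 ± 0.19 and 1.29 ± 0.13 in 786-M1A, where SERPING1 was near 0. In OS-LM1 their values with both constructs were 0.27 ± 0.08 and 0.25 ± 0.08, but they rose with shPAX8-2 only. There C1R and C1S were at 0.63 ± 0.09 and 0.48 ± 0.09 with shPAX8-2 (adjusted p = 3.3e-06 and 1.1e-04). With shPAX8-1 they were at -0.09 ± 0.09 and 0.02 ± 0.09 (adjusted p = 0.386 and 0.888). PLOD2, a collagen-modifying enzyme of the same compartment as SERPINH1, rose by 1.26 ± 0.14 and 1.04 ± 0.08. The partners FKBP10 and P4HB were lower in OS-LM1 (-1.01 ± 0.09 and -0.60 ± 0.09, adjusted p = 3.0e-09 and 3.0e-06). In 786-M1A their values with both constructs were 0.19 ± 0.14 and 0.01 ± 0.09 (adjusted p = 0.227 and 0.936). HSPA5 rose in 786-M1A and OS-LM1, by 1.43 ± 0.12 and 0.65 ± 0.08. Certain partners were at or near 0 in control cells and had to rise to be tested: KLK11, a kallikrein, had no count in the 4 sgNTC18 libraries of OS-LM1 and 86 to 345 counts per shPAX8 library, and PRTN3, proteinase 3, had none in those of 786-M1A and 6 to 44 with shPAX8. ELANE, neutrophil elastase, went from 0 or 1 count in control libraries of 786-M1A to between 6 and 28, and F10 and F11, coagulation factors X and XI, from at most 2 counts in OS-LM1 to between 4 and 30 and between 1 and 13. F2, prothrombin, had 12 to 46 counts in control libraries of OS-LM1 and at most 5 with shPAX8.

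**Figure D5:**
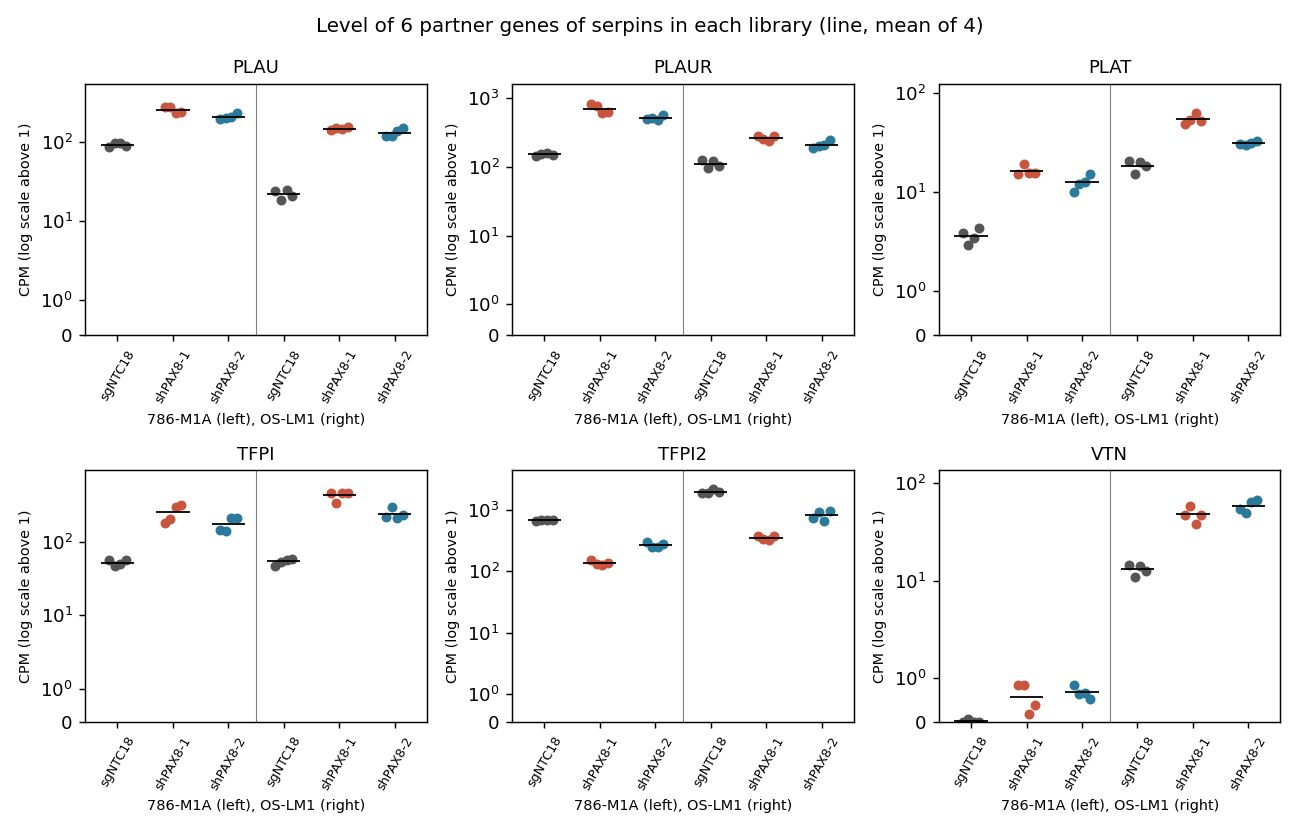
CPM of 6 partner genes of serpins in each library (points; line, mean of 4; vertical axis logarithmic above 1) for sgNTC18 (grey), shPAX8-1 (red) and shPAX8-2 (blue), with 786-M1A left and OS-LM1 right of the vertical line. PLAU, PLAUR, PLAT and TFPI are above the control in every shPAX8 library of both lines and TFPI2 is below it, and VTN is near 0 in 786-M1A.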

How the data were processed

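Bulk RNA-seq was measured in 24 libraries, 4 for each of 3 constructs in 2 cell lines. The authors aligned reads with bowtie2 to hg38 and quantified genes with RSEM, and deposited estimated counts (expected counts) and TPM per library. The labels name a KAPA stranded kit and the methods Lexogen kits, and whether counting used the strand is not given in the sources used here. Expected counts were rounded and fitted with edgeR 4.0.16 (robust quasi-likelihood, R 4.3.3), after filterByExpr by group and TMM scaling, with Benjamini-Hochberg adjustment over all genes tested. Each line was fitted alone, and the comparisons of lines and the interaction over all 24 libraries. CPM values use the TMM library sizes of the latter fit. Fold changes resting on a group mean of 3 counts or fewer are not given. DESeq2 1.42.0 and other settings of edgeR gave the alternatives, and the fits were tested on simulated data. Genes on the promoter and coordinate side come from RefSeq (GRCh38.p14). Values in every library are given for serpins called alike with both constructs in a line, abundant in their clade, in the 18q21 or 6p25 clusters, or differing at least 2-fold between constructs. Partners are named when both constructs changed them at least 2-fold in a line, and PLAU, PLAT and PLAUR always. FKBP10, P4HB and HSPA5 are given in addition, beside PLOD2. The members and lists were chosen with earlier results of these data known. Results on 1 serpin and 1 partner gene are not reported here, and neither stands in any count of members or partners, though both stay in the fits over all genes. No replicate pair agreed within sampling noise.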

Additional observations from a re-analysis of the deposited data

Results flagged for a closer look

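The response to PAX8 depletion differed between lines (log2 fold change in OS-LM1 minus that in 786-M1A, both constructs, tested as an interaction in edgeR with Benjamini-Hochberg adjustment) for 11 serpins with enough counts to give a value, where 58.7% of all genes tested differed, 29.9% upward and 28.8% downward. It was higher in OS-LM1 for SERPINB2 by 5.72 (adjusted p = 3.4e-11), SERPINA6 by 2.10 (1.1e-08), SERPINB8 by 2.04 (1.2e-12), SERPINB9 by 1.10 (1.4e-07), SERPINB6 by 0.77 (7.3e-08) and SERPINB1 by 0.35 (0.0095). It was lower in OS-LM1 for SERPINF2, at -5.34 (3.4e-10), SERPINA1, at -2.30 (7.7e-14), SERPINE2, at -1.44 (5.3e-13), SERPINH1, at -0.76 (2.6e-04) and SERPINB7, at -0.63 (0.00778).

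In 5 of 84 groups of 4 libraries 1 library lay far from the other 3, where chance gives about 1 in 20 groups. These were SERPINB7 in OS-LM1 sgNTC18 replicate 2 (41.6 CPM, low), SERPINF2 in 786-M1A shPAX8-1 replicate 1 (1.78 CPM, high) and OS-LM1 shPAX8-2 replicate 1 (0.98 CPM, high), and SERPINI1 in 786-M1A shPAX8-1 replicate 1 (0.784 CPM, low) and OS-LM1 shPAX8-2 replicate 2 (1.97 CPM, high).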

How the results depend on the processing

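Every total of serpins or partners called stayed within 1.5 times its reported value under DESeq2, DESeq2 size factors, no filter on low counts, stricter thresholds, removal of each library's GC trend, the replicate block and, where they applied, without either pair of 786-M1A shPAX8-1 replicates. Counts in 1 direction moved further in 7 cases. With no filter, serpins higher in 786-M1A went from 7 to 11 with each construct, and serpins lower in OS-LM1 than in 786-M1A among shPAX8 libraries went from 2 to 6 (to 4 with the GC trend removed). With a log2 fold change over 0.58, serpins lower in OS-LM1 with both constructs went from 4 to 2 and those lower in OS-LM1 than in 786-M1A among sgNTC18 libraries from 2 to 0, where edgeR, DESeq2 and an adjusted p under 0.01 each gave 2. With an adjusted p under 0.01, the 786-M1A count of serpins that shPAX8-1 left below shPAX8-2 went from 3 to 1. Leaving out 1 library at a time gave 10 to 11 serpins in 786-M1A and 14 to 15 in OS-LM1 for both constructs against sgNTC18, and 6 to 8 and 7 to 10 between constructs. Of 112 called single-gene results, 26 of 1680 fits that left out a library lost a call, over 6 results that are named above with those libraries. Requiring an absolute log2 fold change over 0.58 removed 20 calls, and an adjusted p under 0.01 removed 7. One result reversed, SERPINB6 between lines in shPAX8 libraries, which was 0.19 and became -0.03 with the GC trend removed.

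The replicate number as a block gave 11 serpins called in 786-M1A and 14 in OS-LM1 against sgNTC18, and 7 and 8 between constructs, and ended 3 calls: SERPINB6 (0.23) between lines in shPAX8 libraries, SERPINB8 between constructs in OS-LM1 (0.29) and SERPINF1 against sgNTC18 in OS-LM1 (0.51). Deviations from the group mean in same-numbered libraries of a line had correlations of -0.392 to 0.347, of which 7 of 24 exceeded 0.1. Their median was 0.001, against 0.0015 for libraries with different numbers, so the number alone did not mark libraries that deviated together. Some differently numbered libraries did, such as shPAX8-1 replicate 4 and shPAX8-2 replicate 3 of 786-M1A (0.386), and shared handling was not tested. Of the serpins tested, SERPINA3, SERPINB3, SERPINB4, SERPINF1 and SERPINI1 had under 60 counts in every library, which limits their precision.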
